A study of Homo sapiens with 13 samples.

Results

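The MYC, MAX and MXD network of transcription factors was followed through growth factor stimulation of mammary epithelial cells. Its members were chosen by name: MYC, its obligate partner MAX, the MAX-binding repressors MXD1, MXI1, MXD4 and MNT, and ODC1, a polyamine enzyme gene known as a direct MYC target. These are 7 genes beside the 11963 genes that the arrays named with a probe set of 1 gene symbol. Of the 7 members, 6 had such a probe set, and 5 (MYC, MAX, MXI1, MNT and ODC1) were bright enough to be tested.

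RNA came from MCF10A, an immortalized but non-tumorigenic human mammary epithelial line, so every value describes 1 cell line. All cells had grown in medium holding insulin, cholera toxin, hydrocortisone, 5% horse serum and 10 ng/ml EGF, and all had then been deprived of serum for 24 h. Some cells then received no stimulus. The rest were given either EGF or the mixture the submitters call serum (horse serum with insulin, cholera toxin and hydrocortisone) and collected after 20, 40, 60, 120, 240 or 480 min. Each of the 13 conditions was measured on 1 Affymetrix array, no condition was repeated, and the labels do not say whether the arrays came from separate cultures, so each test below measures only the spread between these arrays.

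MYC is a basic helix-loop-helix leucine zipper protein that binds DNA as a heterodimer with MAX, at E-box sequences whose canonical core is CACGTG, and activates genes of ribosome production, nucleotide synthesis and cell cycle entry. MXD proteins, MXI1 and MNT compete for MAX and for the same sites and recruit SIN3 and histone deacetylase complexes, so the balance of MYC and its antagonists sets the output of shared targets. In resting fibroblasts and epithelial cells given growth factors, MYC is classically an early response gene, with a short-lived mRNA and protein.

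Values are deposited MAS5 signals, a linear measure of the brightness of a probe set (a group of short probes for 1 transcript region), which the authors had scaled to about the same mean on every array: the trimmed mean signal was 150.04 to 150.05. Differences are on the scale of log2(signal + 6) after quantile normalization, which understates the change of dim genes. Dim readings (signals under 20) were rarest on the 20 min serum array, 33.3% of its probe sets, while the other 12 arrays held 36.8% to 40.0%. The labels conflict for the EGF array of 20 min, whose description says 40 min, and its title was followed. All 6 basal epithelial markers were bright, with median signals of 4878 for KRT5, 5949 for KRT14 and 4968 for EGFR. The luminal markers ESR1 and KRT19, the leukocyte marker PTPRC and the endothelial marker VWF were dim, with medians of 15.0, 0.90, 7.2 and 2.6, while KRT18, GATA3, DCN and CD14 gave medians of 3015, 171, 278 and 187. In RNA from whole cultures, a change in the number of cells that express a gene and a change in RNA per cell cannot be told apart.

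Promoter sequences of members are shown because E-boxes are the sequences that MYC and its antagonists bind with MAX. RefSeq windows on GRCh38.p14, from 250 bases before to 50 bases after each annotated start, were searched for 6 of the 7 members, 10 windows in all. MYC was left out of this search, so the counts of member windows say nothing about its promoter. CACGTG, searched on both strands, was in 3 of the 10 windows and in 7.26% of all 35116 RefSeq windows of that length. The 3 windows belong to MXD4, MNT and the second start of ODC1, which has 2 copies. They are printed 5′ to 3′ on the gene's strand, 30 bases each, with the motif in capitals. All 3 genes lie on the minus strand, and the E-boxes start 238 bases (MXD4), 193 bases (MNT) and 29 bases (ODC1) before the start and at base 6 after it (ODC1).
MXD4, chr4:2262330-2262359: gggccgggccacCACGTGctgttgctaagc
MNT, chr17:2401236-2401265: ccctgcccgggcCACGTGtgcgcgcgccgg
ODC1 second start, chr2:10448024-10448053: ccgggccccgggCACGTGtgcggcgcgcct
ODC1 second start, chr2:10447990-10448019: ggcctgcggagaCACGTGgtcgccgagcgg
The first start of ODC1 lies 315 bases further upstream. Its 250 bases before the start, chr2:10448328-10448577 on the minus strand, are 78.8% G and C and hold no CACGTG. Capitals there mark 3 motifs. The variant E-box CACGCG, which 11.4% of all windows hold, occurs on both strands, so that its copies overlap in 1 palindrome. The motif TGACGTC, the core of a cyclic AMP response element, is in 3.45% of windows and here starts 178 bases before the start. The TATA box motif TATAA is in 20.4% of windows and here starts 32 bases before the start.
ODC1 first start: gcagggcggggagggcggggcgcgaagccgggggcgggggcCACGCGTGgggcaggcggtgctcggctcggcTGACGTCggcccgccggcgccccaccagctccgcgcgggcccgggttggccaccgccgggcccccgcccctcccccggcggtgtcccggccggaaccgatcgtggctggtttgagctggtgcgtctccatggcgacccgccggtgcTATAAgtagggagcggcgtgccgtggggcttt
A further window, at an alternative annotated start of MXI1, holds CACGCG, in chr10:110225992-110226021 on the plus strand.
MXI1 alternative start: aggtaaacaaacCACGCGcgggctgcccgc
These matches describe letters only, and nothing here measured binding.

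MYC was among the brightest genes before any stimulus, and no response of it passed the test. Its signal was 2494 on the unstimulated array. With EGF it read 2959 at 20 min, 2855 at 40 min, 2786 at 60 min, 4355 at 120 min, 2139 at 240 min and 2258 at 480 min. With serum it read 2455 at 20 min, 3447 at 40 min, 3269 at 60 min, 2598 at 120 min, 3449 at 240 min and 2649 at 480 min. The highest array was EGF at 120 min, 0.62 above the unstimulated array on the log2 scale, and the lowest was EGF at 240 min, 0.27 below it (log2 -0.27). Under serum the 2 highest arrays were 40 and 240 min, at 0.37 and 0.34, with 120 min between them at -0.06. The EGF and serum courses therefore crossed: EGF was the higher of the pair at 20 and 120 min and the lower at the other 4 times, and the signals of both stimuli overlapped.

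**Figure D1:**
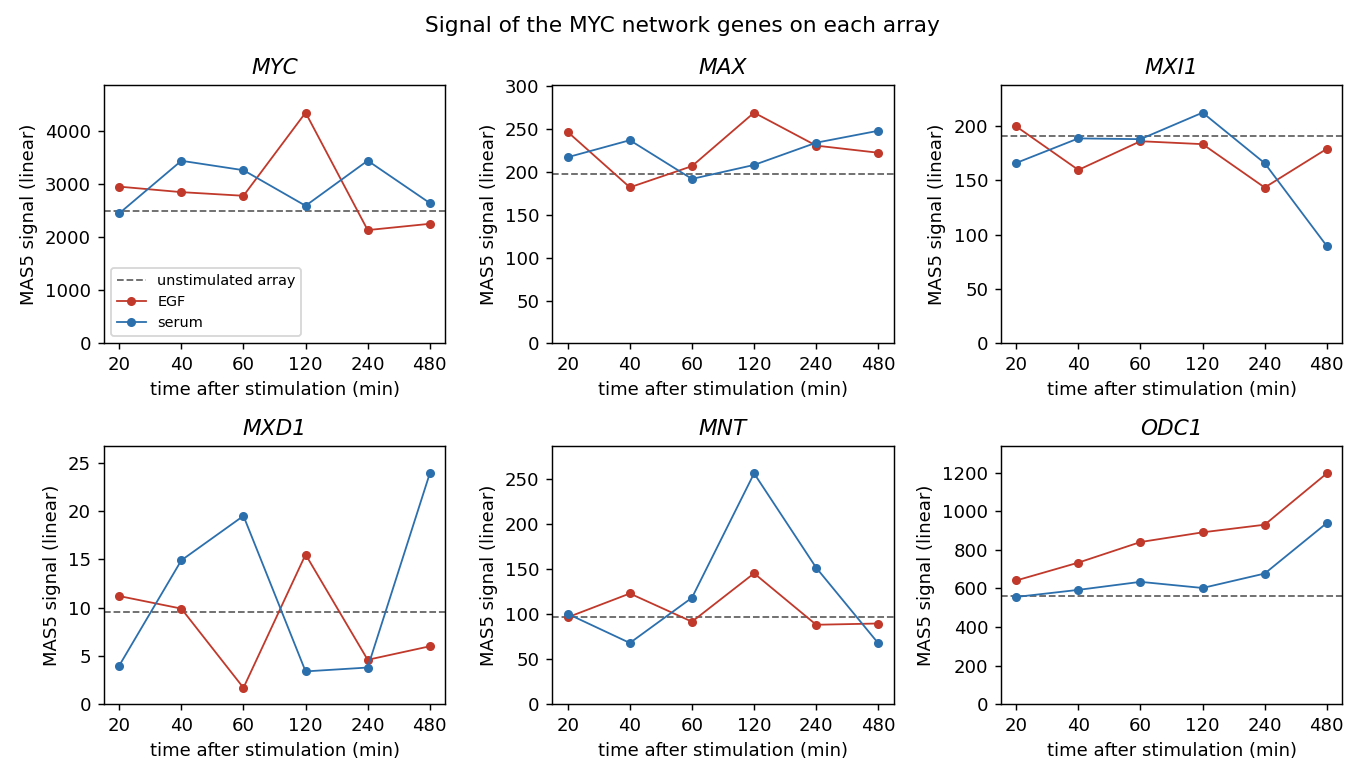
MAS5 signal (linear axis from 0) of each member with a probe set of 1 gene symbol, against time after stimulation in min. Each point is 1 array, red for EGF and blue for serum, the dashed line is the unstimulated array, and there are no error bars because no condition was repeated. ODC1 is higher with EGF than with serum at all 6 times, whereas the EGF and serum lines of MYC, MAX, MXI1, MXD1 and MNT cross.

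Early response genes are set beside MYC as a description of the same RNA. Their list was chosen with earlier results of these data known, so it is not an independent control. Of 20 EGF-induced immediate early genes listed, 19 were tested, and 4 rose at 40 min, a time at which 0.0776% of all genes were called. The list's median difference from the unstimulated array was then 1.60 against -0.01 for all 7731 tested genes. EGR3 (3.62, SE 0.30) and EGR1 (2.41, SE 0.21), zinc finger transcription factors, and CCN2 (3.24, SE 0.18) and CCN1 (2.02, SE 0.23), secreted matrix-associated proteins, had limma adjusted p of 0.0088, 0.0088, 0.00091 and 0.038 after the Benjamini-Hochberg method. The CCN1 call ended when any 1 of 10 arrays was left out (all stimulated arrays but those of 120 min), without a filter (adjusted p = 0.155) and without both 20 min arrays (adjusted p = 0.081), and those of EGR1 and EGR3 ended without either array of 40 min. The corresponding MYC response at 40 min was 0.20 (SE 0.33, adjusted p = 0.957). Its largest fitted response was 0.28 at 120 min (SE 0.33, 95% interval -0.49 to 1.05, adjusted p = 0.851), which became -0.18 without the EGF array of 120 min and 0.74 without the serum array of that time.

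The time course allowed 11 comparisons, each fitted over all 7731 genes with limma and called at an adjusted p under 0.05. EGF was compared with serum over 6 pairs of arrays matched by time. The late times (120, 240 and 480 min) were set against the early times (20, 40 and 60 min), for both stimuli together and within each, and the difference between those 2 changes was tested as an interaction. Each time was also compared with the single unstimulated array, so the 6 responses share that array and are given side by side.

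None of the 5 tested members passed the threshold in any of the 11 comparisons. The shares of all tested genes that did so were 0.129% for EGF minus serum, 3.47% for late minus early with both stimuli, 0.259% for late minus early with EGF, 1.42% with serum and 0.0259% for the interaction. For the responses they were 0.0259% at 20 min, 0.0776% at 40 min, 0.0776% at 60 min, 0.0259% at 120 min and 0% at 240 and 480 min. Against those shares a count of 0 of 5 says little about the network. At an unadjusted p under 0.05 there was 1 of the 5 members in each of EGF minus serum, late minus early with both stimuli, late minus early with EGF, and the responses at 120, 240 and 480 min, and 0 in the others. Over all genes these counts were 1590 for EGF minus serum, 1848, 1121 and 1563 for late minus early with both, EGF and serum, and 716, 753 and 911 at 120, 240 and 480 min.

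For MYC the EGF minus serum difference was -0.09 (SE 0.16, 95% interval -0.45 to 0.28, adjusted p = 0.799), with EGF higher in 2 of 6 pairs. Late minus early was -0.07 (SE 0.16, adjusted p = 0.811) over both stimuli. The single pairs ran from -0.61 at 240 min to 0.68 at 120 min, so the fitted mean lies between arrays that differed in opposite directions. Leaving out either 240 min array turned the EGF minus serum difference to 0.017, and leaving out the EGF array of 240 min turned late minus early to 0.003.

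MAX, the common partner of MYC and the MXD proteins, kept the narrowest range of the tested members. Its brightest probe set, 209332_s_at, read 198 unstimulated, 182 to 269 with EGF and 192 to 248 with serum, a range of 0.54 on the log2 scale over the 13 arrays. With EGF the lowest array was 40 min (182) and the highest 120 min (269). With serum the lowest was 60 min (192) and the highest 480 min (248). EGF minus serum was 0.00 (SE 0.11, 95% interval -0.25 to 0.25, adjusted p = 0.997), with EGF higher in 3 of 6 pairs, and late minus early was 0.13 (SE 0.10, adjusted p = 0.456). Of the 12 stimulated arrays, 5 with EGF and 6 with serum lay above the unstimulated one, and the fitted responses ran from 0.06 at 60 min to 0.31 at 120 min (SE 0.23), none past the threshold. The value at 120 min was 0.09 without the EGF array of that time and 0.52 without the serum array.

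MAX was also read by 4 other probe sets, and they did not follow the brightest one. Over the 13 arrays, the pairwise Pearson correlations of the 5 probe sets ran from -0.35 to 0.57, as a description with no test. The steadiest of the other probe sets, 209331_s_at, read 96.3 to 144, while 208403_x_at ranged from 16.6 to 68.9 and 214108_at from 4.2 to 32.7. For EGF minus serum the 5 probe sets gave 0.00 for the brightest, 0.01 for 209331_s_at, 0.25 for 210734_x_at, -0.10 for 208403_x_at and 0.41 for 214108_at. When all probe sets of a gene were averaged, 2 MAX values changed sign without being called: late minus early with serum became -0.14 and the response at 20 min became -0.04.

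**Figure D2:**
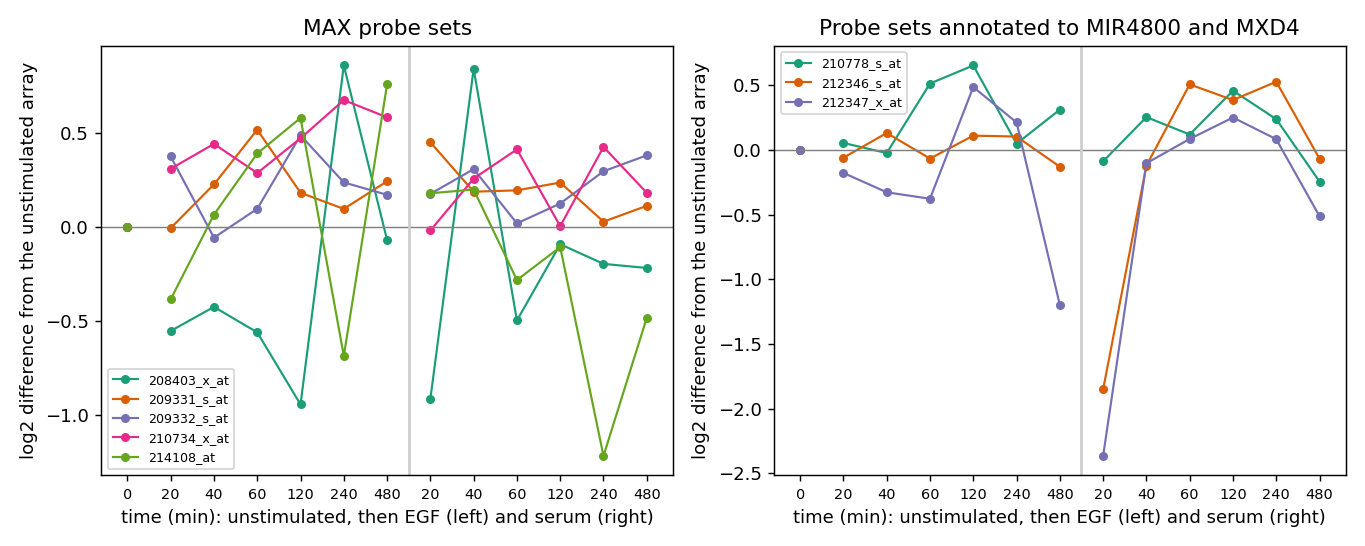
Difference from the unstimulated array on the log2(signal + 6) scale for each probe set of MAX (left) and for the 3 probe sets annotated to both MIR4800 and MXD4 (right), against time in min, EGF arrays before the grey line and serum arrays after it. Each point is 1 array; the MAX probe sets diverge from each other, and 212346_s_at and 212347_x_at share a low point of -1.85 and -2.37 on the serum array of 20 min, where 210778_s_at is at -0.09.

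Among the antagonists, MXD1, a repressor induced when cells differentiate, was close to the floor of the assay. Its probe set read 9.5 unstimulated, 1.7 to 15.5 with EGF and 3.4 to 23.9 with serum, and its mean log2 value of 3.87 lay under the filter of 4.68 (a signal of 19.7), so it was not tested with the others. In a fit without that filter, over 11963 genes, EGF minus serum was -0.20 (SE 0.40, 95% interval -1.15 to 0.75, limma adjusted p = 0.863) and late minus early was -0.04 (SE 0.39, adjusted p = 0.972).

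MXI1, a MAX-binding repressor that opposes MYC, read 191 unstimulated and between 143.5 and 212 on all stimulated arrays but the last of the serum course. With EGF it read 199.7, 159.7, 186, 183, 143.5 and 179 at 20, 40, 60, 120, 240 and 480 min. With serum it read 166, 189, 188, 212, 166 and 89.7 at the same times. The value at 480 min with serum was -0.94 relative to the unstimulated array, and the EGF array of that time was not low. The fitted response at 480 min, which averages those unlike arrays, was -0.51 (SE 0.34, adjusted p = 0.592), or -0.026 without the serum array and -0.99 without the EGF array. EGF minus serum was 0.07 (SE 0.16, 95% interval -0.30 to 0.43, adjusted p = 0.853), and without either array of 480 min it was -0.09. Late minus early was -0.20 (SE 0.17, adjusted p = 0.523), and it was -0.032 without the serum array of 480 min and -0.32 without that of 120 min.

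MXD4 had no probe set of its own symbol alone. All 3 of its probe sets carry the symbols MIR4800, a microRNA gene that lies within MXD4, and MXD4, so their signals were not assigned to MXD4 and were not tested. Probe set 210778_s_at read 66.3 unstimulated, 60.1 to 98.5 with EGF and 47.0 to 84.3 with serum. Probe set 212346_s_at read 31.2 unstimulated, 22.9 to 32.1 with EGF and 5.1 to 41.7 with serum, and 212347_x_at read 91.0, 31.6 to 122 and 15.5 to 102. The latter pair correlated at 0.88 over the 13 arrays and shared a low reading on the serum array of 20 min, while 210778_s_at correlated with them at 0.33 and 0.39. The serum array of 20 min was also the one with the fewest signals under 20, and the part of that array in these low readings was not tested.

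MNT, the broadly expressed MAX-binding repressor, had the widest range of the tested members (1.81). It read 96.5 unstimulated. With EGF it read 96.5, 123, 91.6, 145, 88.2 and 89.6 at 20, 40, 60, 120, 240 and 480 min. With serum it read 100.3, 68.0, 118, 256, 152 and 67.6. Both courses were highest at 120 min, 0.64 above the unstimulated array with EGF and 1.45 above it with serum, and both were below the unstimulated signal at 480 min. The fitted response at 120 min was 1.05 (SE 0.45, 95% interval 0.01 to 2.09, 2.07-fold), which did not pass the threshold (adjusted p = 0.537). It was 0.65 without the serum array of 120 min and 1.45 without the EGF array of that time. EGF minus serum was -0.14 (SE 0.21, 95% interval -0.63 to 0.35, adjusted p = 0.754), and it ran from -0.32 without either 40 min array to -0.006 without either 120 min array. Late minus early with serum was 0.60 (SE 0.38, 95% interval -0.23 to 1.43, adjusted p = 0.409), and it was 0.18 without the serum array of 120 min and 1.07 without that of 480 min.

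ODC1, the rate-limiting enzyme of polyamine synthesis, gave the most regular course of the network. It read 559 unstimulated. With EGF it read 641 at 20 min, 734 at 40 min, 840.3 at 60 min, 891 at 120 min, 930.1 at 240 min and 1196 at 480 min, each higher than the time before. With serum it read 556 at 20 min, 593 at 40 min, 634 at 60 min, 602 at 120 min, 677 at 240 min and 939 at 480 min. All 6 EGF arrays and 5 of 6 serum arrays lay above the unstimulated one, and each EGF array lay above its serum pair, by 0.19 at 20 min to 0.55 at 120 min. The 3 late EGF arrays all exceeded the 3 early ones, whereas late and early serum arrays overlapped.

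The fitted EGF minus serum difference of ODC1 was 0.38 (SE 0.08, 95% interval 0.20 to 0.55, 1.30-fold), above 0 in 6 of 6 pairs. It did not pass the threshold (limma, Benjamini-Hochberg adjusted p = 0.070). It passed with an offset of 24 (adjusted p = 0.046), with a filter at the 60th percentile (adjusted p = 0.028) and with robust variances that follow a trend (adjusted p = 0.0055), and the adjusted p ran from 0.0055 to 0.192 over all alternatives. Late minus early was 0.35 (SE 0.12, 95% interval 0.08 to 0.62, adjusted p = 0.118) over both stimuli, 0.42 (SE 0.17, adjusted p = 0.309) with EGF and 0.28 (SE 0.17, adjusted p = 0.402) with serum. The serum value was 0.10 without the array of 480 min and 0.41 without that of 120 min. The interaction was 0.14 (SE 0.14, adjusted p = 0.748). The responses were 0.08, 0.21, 0.36, 0.37, 0.47 and 0.88 from 20 to 480 min (SE 0.16 each). At 480 min the interval was 0.51 to 1.25 (1.84-fold, adjusted p = 0.183), and the robust fit gave an adjusted p of 0.018. The 18S ribosomal RNA control was also brighter with EGF than with serum in 5 of 6 pairs (323 to 4357 with EGF, 161 to 859 with serum), the exception being 240 min. The part of that control difference in the ODC1 result was not tested.

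**Figure D3:**
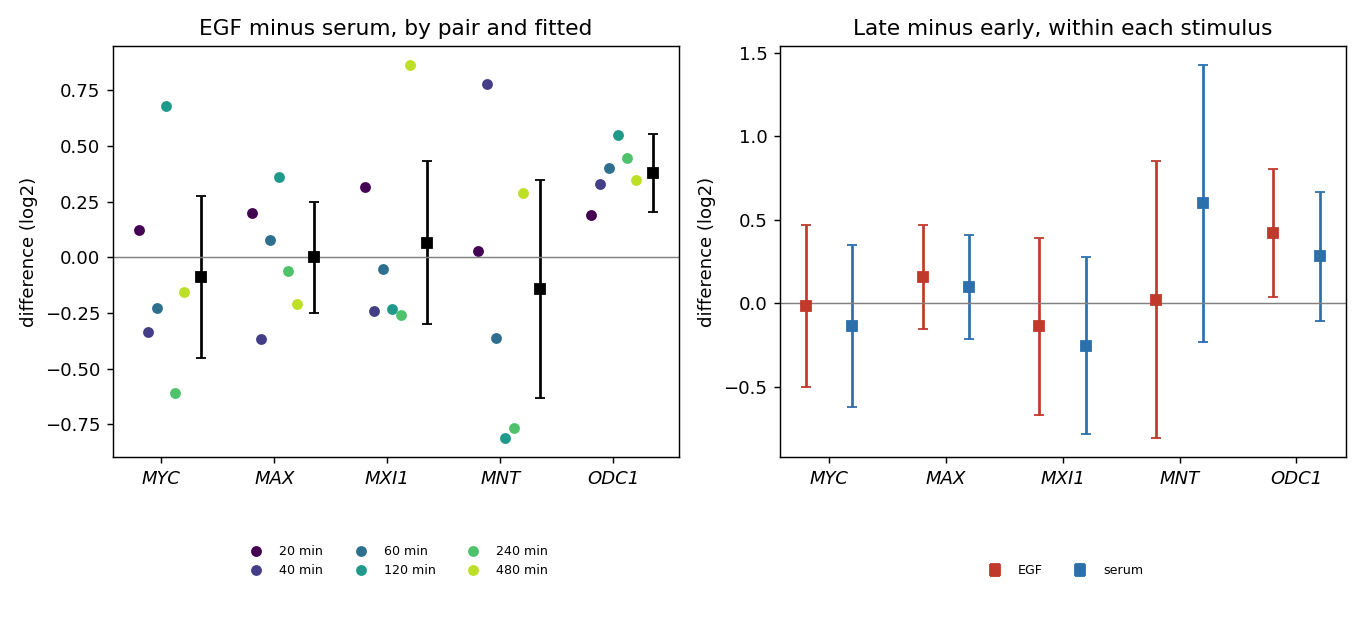
Differences on the log2(signal + 6) scale for the 5 tested members. Left, EGF minus serum, with 1 coloured point per time-matched pair and a black square for the limma estimate with its 95% interval; right, late minus early within EGF (red) and serum (blue), with 95% intervals. All 6 ODC1 pairs lie above 0 (0.19 to 0.55), while the pairs of the other 4 genes lie on both sides of 0.

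The measured courses of the members were not closely correlated. Over the 13 arrays the Pearson correlations between tested members ran from -0.45 (MXI1 and ODC1) to 0.45 (MXI1 and MNT), with 0.39 for MYC and MAX and -0.29 for MYC and ODC1, as descriptions over arrays that share 1 normalization. The probe sets of MAX alone ran from -0.35 to 0.57 among themselves, so these values cannot show whether members share a course. Between the EGF and serum courses of the same gene over the 6 times, the correlation was 0.91 for ODC1, 0.43 for MNT, -0.04 for MXI1, -0.29 for MAX and -0.39 for MYC.

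The genes most like each member were taken from the 2735 kept genes whose range was at least 1 on the log2 scale. They are the highest correlations of that pool, given as a description with no test. ODC1 was most like PLEK2 (r = 0.92), POP7 (0.87), which encodes a protein subunit of ribonuclease P, and SMTN (0.86), a smooth muscle cytoskeletal protein. PLEK2, a pleckstrin family protein, read 276 unstimulated, 667 with EGF at 480 min and 358 with serum at that time. MNT was most like ZNF189 (0.81), SECISBP2 (0.80) and PIM1 (0.80). PIM1, a serine/threonine kinase, read 62.4 unstimulated and 164 with serum at 120 min, the array on which MNT also peaked. MXI1 was most like ATP7A, a copper transporter, SH3PXD2A and TNFAIP2 (0.88 each), and ATP7A read 96.8 unstimulated and 37.3 with serum at 480 min. MXI1 and these genes were all lowest on that array, where SH3PXD2A read 3.5. The part of that array in these correlations was not tested. MAX was most like DYNC1LI1 (0.89), a dynein light intermediate chain, CCDC28A (0.77) and ICA1 (0.77). MYC had the weakest closest matches, EMD (0.73), the nuclear envelope protein emerin, LIMS2 (0.73) and PRSS22 (0.70).

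Other genes of the MAX network gave no calls either. Of 7 listed, MXD3, MGA, MLX and MLXIP were tested, while MYCN, MYCL and MLXIPL lay under the filter. None was called higher or lower in any of the 11 comparisons, in which 0% to 3.47% of all genes were called. The median EGF minus serum difference was 0.14, against 0.01 over all tested genes. MXD3, an MXD protein linked to S phase, had an EGF minus serum difference of 0.54 (adjusted p = 0.427) and a late minus early difference with serum of -1.06 (SE 0.39, adjusted p = 0.167). MGA, a MAX-binding repressor, had a late minus early difference with serum of -0.38 (adjusted p = 0.205). MLXIP, a glucose-sensing factor that pairs with MLX, had an EGF minus serum difference of -0.48 (SE 0.15, adjusted p = 0.150).

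The cofactors through which MYC and its antagonists act gave no calls. Of 19 listed chromatin and elongation factors, 14 were tested, with 0 called in either direction in all 11 comparisons. Over all genes the shares called were 0% to 3.47%. Their median was -0.02 for EGF minus serum and 0.00 for late minus early, against 0.01 and 0.02 over all genes. The largest EGF minus serum differences were those of ACTL6A, an actin-related subunit of chromatin remodellers, at -0.39 (adjusted p = 0.142), and KAT2A, a histone acetyltransferase, at -0.38 (adjusted p = 0.228).

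Regulators of MYC protein turnover were likewise without calls (0 of 9 tested, of 12 listed, in each comparison, beside 0% to 3.47% of all genes). The 2 genes of largest difference in each of EGF minus serum and late minus early did not pass the threshold. AURKA, a mitotic kinase that stabilises MYC proteins, was 0.51 for EGF minus serum (SE 0.09, adjusted p = 0.060), and FBXW7, the ubiquitin ligase subunit that recognises phosphorylated MYC, was 0.38 (adjusted p = 0.251). GSK3B, which marks MYC for degradation, was 0.55 for late minus early (SE 0.14, adjusted p = 0.051), and PPP2CA, the catalytic subunit of protein phosphatase 2A, was 0.30 (adjusted p = 0.054).

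Around ODC1, the polyamine pathway showed 1 call. Of 15 listed enzymes and regulators, chosen with earlier results of these data known, 14 were tested. ATP13A3, a polyamine transporter, read 8.60 on the log2 scale unstimulated. With EGF it read 7.85 to 8.11 early and 8.08 to 8.65 late, and with serum 8.46 to 8.48 early and 8.93 to 9.02 late. It was therefore higher late than early (0.43, SE 0.10, 1.34-fold, adjusted p = 0.040), 1 of 14 against 1.68% of all genes called higher. That call ended when any 1 of 11 arrays was left out (all stimulated arrays but EGF at 120 min), without a filter (adjusted p = 0.101), with time as a factor (adjusted p = 0.076), without both 20 min arrays (adjusted p = 0.101), and with probe sets averaged, where the value was 0.19 (adjusted p = 0.321). The list's median was 0.13 for late minus early and 0.07 for EGF minus serum, against 0.02 and 0.01 over all genes. For EGF minus serum ATP13A3 was -0.55 (adjusted p = 0.066) and DOHH, a hydroxylase of the polyamine-dependent hypusine modification, was 0.53 (adjusted p = 0.147). At 480 min SMOX, which oxidises spermine, was 0.61 and SRM, the spermidine synthase, was 0.56 (SE 0.20, adjusted p = 0.365).

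Known activated targets of MYC gave no calls. Of 40 listed genes, chosen with earlier results of these data known, 33 were tested, and 0 were called in any comparison. Over all genes the shares called were 0% to 3.47%, so a count of 0 of 33 says little about the list. For late minus early 29 of 33 were above 0 with a median of 0.14, beside 4075 of 7731 above 0 and a median of 0.02 over all genes. For EGF minus serum the median was 0.08, and the largest values were those of E2F1 (0.64, adjusted p = 0.166), a cell cycle transcription factor, and TYMS (0.43, adjusted p = 0.072), thymidylate synthase. CDC25A, a cell cycle phosphatase, was 0.45 for late minus early (adjusted p = 0.076), whereas TFAP4, a transcription factor, was -0.80 (adjusted p = 0.132). From 20 to 120 min the list's median response was between -0.13 and -0.07, and at 480 min it was 0.07.

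Genes that MYC is known to repress gave 3 calls among 14 tested of 18 listed. The list was chosen with earlier results of these data known. Its counts beside the shares of all genes are therefore a description, not independent support. CDKN1C, an inhibitor of cyclin-dependent kinases, was lower with EGF than with serum (-1.85, SE 0.20, 3.61-fold, adjusted p = 0.027). Its log2 values ran from 4.71 to 5.32 on the EGF arrays and from 6.02 to 7.32 on the serum arrays, beside 4.90 unstimulated, so the groups did not overlap, and the EGF arrays were the ones close to the unstimulated value. That was 1 of 14, against 0.116% of all genes called lower. The call ended without any 1 of the EGF or serum arrays of 60, 120, 240 or 480 min (adjusted p up to 0.118) and without a filter (adjusted p = 0.132). DUSP1, of the immediate early list, was also called lower with EGF than with serum (-1.91, SE 0.16, limma adjusted p = 0.010). That call ended in 4 of 13 fits with 1 array left out and in 1 of 8 other alternatives. The part of MYC in either difference was not tested.

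The other calls among the repressed genes, from the same list chosen with earlier results known, were between early and late times. KLF6, a zinc finger tumor suppressor and itself an early response gene (-1.07, SE 0.19, 2.09-fold, adjusted p = 0.019), and TXNIP, a thioredoxin inhibitor that limits glucose uptake (-0.93, SE 0.22, 1.90-fold, adjusted p = 0.048), fell from early to late times, 2 of 14 against 1.79% of all genes called lower. KLF6 read 7.15 on the log2 scale unstimulated, 7.87 to 8.67 on the early arrays and 6.75 to 8.13 on the late ones. TXNIP read 9.59 unstimulated, 9.32 to 9.83 early and 8.10 to 9.67 late, the highest late array being serum at 120 min. The TXNIP call ended without any 1 of 10 arrays (all stimulated arrays but those of 120 min), with an offset of 1 (adjusted p = 0.054), without a filter (0.112), with averaged probe sets (0.057) and without both 20 min arrays (0.140), and that of KLF6 without the serum array of 40 min (adjusted p = 0.051). The list's median was -0.24 for late minus early and -0.27 for EGF minus serum, against 0.02 and 0.01 over all genes. Of its genes, 9 of 14 were above the unstimulated array at 20 min and 4 of 14 at 480 min, beside 3915 and 4124 of 7731 over all genes. At 480 min the responses of its genes ran from -1.40 to 1.07. The largest rise was that of GADD45A, 1.84 at 60 min (SE 0.42, limma adjusted p = 0.295), which was not called.

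**Figure D4:**
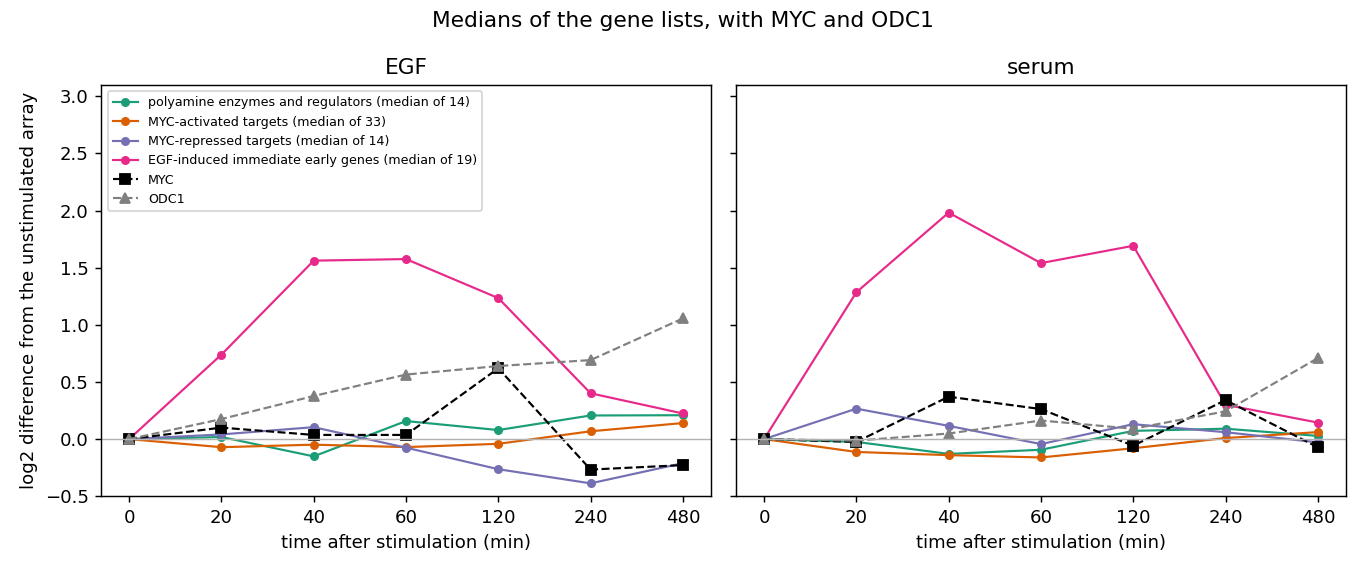
Median difference from the unstimulated array, on the log2(signal + 6) scale, of 4 gene lists, with MYC (black squares) and ODC1 (grey triangles), against time in min after EGF (left) or serum (right). Each point is the median over a list's tested genes on 1 array, without error bars; the immediate early list peaks at 1.58 with EGF and 1.98 with serum, while the medians of MYC-activated targets stay between -0.16 and 0.14.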

How the data were processed

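The deposited values were microarray intensities, 1 per probe set and array: the linear MAS5 signal of the authors, per the submitters' processing notes; the sources used here name no version. The arrays held 22277 probe sets, of which 62 controls were left out. Of the other 22215, 19064 carried 1 symbol in the platform annotation, 1043 several and 2108 none. Signals were transformed as log2(signal + 6), quantile normalized, and reduced to the brightest probe set of each of 11963 genes. Genes with a mean at or above the 40th percentile of probe sets (7731) were fitted with limma 3.58.1 in R 4.3.3, with Benjamini-Hochberg adjustment over all of them and a threshold of 0.05. EGF minus serum used time as a block, late minus early 5 phase groups, and the responses an additive model of time and stimulus, in which the spread comes from how well the 2 stimuli run in parallel.

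The precision is limited by the number of arrays (13, with 1 per condition). The scripts were tested on simulated data. The members and gene lists were chosen with earlier results of these data known. From each list the text names up to 4 called genes with the largest difference, otherwise the 2 with the largest difference in comparisons chosen for the text, and for each tested member the 3 genes of highest correlation. Alternatives were offsets of 1 and 24, no quantile normalization, no filter or the 60th percentile, averaged probe sets, robust variances that follow a trend, time as a factor, and each array left out. A fit without both 20 min arrays was added after seeing the data. Figures were drawn with matplotlib 3.10.9 in Python 3.11.15.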

Additional observations from a re-analysis of the deposited data

How the results depend on the processing

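No member passed the threshold in the reported fits, and ODC1 was the only one to pass it under any alternative. Its difference was 0.37 for EGF minus serum with an offset of 24, 0.38 with the 60th percentile filter, and 0.38, 0.35 and 0.88 for EGF minus serum, late minus early and 480 min with robust variances that follow a trend (below, a variance trend). Of 440 member values under the other alternatives, 428 kept direction and side of the threshold, 5 passed it (all ODC1) and 7 changed sign, none of them called. Those 7 were MNT at 40 min (-0.07) and MXI1 at 60 min (-0.031) without quantile normalization, MAX late minus early with serum (-0.14) and at 20 min (-0.038) with probe sets averaged, and, without both 20 min arrays, MAX for EGF minus serum (-0.039) and MYC (0.005) and MNT (-0.02) for late minus early with EGF.

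Of 685 member values with 1 array left out, 41 changed sign, none called. The affected values ran over these ranges. MYC ran from -0.24 to 0.017 for EGF minus serum, -0.22 to 0.003 for late minus early with both stimuli, -0.31 to 0.14 with EGF, -0.24 to 0.41 for the interaction, -0.089 to 0.17 at 20 min, -0.18 to 0.74 at 120 min and -0.28 to 0.35 at 240 min. MAX ran from -0.072 to 0.074 for EGF minus serum, -0.11 to 0.18 for the interaction and -0.093 to 0.35 at 40 min. MXI1 ran from -0.094 to 0.13 for EGF minus serum, -0.50 to 0.073 for late minus early with serum, -0.25 to 0.31 for the interaction, -0.18 to 0.12 at 20 min, -0.25 to 0.12 at 40 min, -0.055 to 0.086 at 60 min and -0.092 to 0.27 at 120 min. MNT ran from -0.20 to 0.15 for late minus early with EGF, -0.031 to 0.17 at 20 min, -0.52 to 0.58 at 40 min, -0.031 to 0.72 at 240 min and -0.43 to 0.091 at 480 min. ODC1 ran from -0.032 to 0.19 at 20 min.

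The number of genes called moved more, and the cause was not tested. For EGF minus serum it was 10 as reported, 6 with an offset of 1, 157 with 24, 1 without a filter, 225 with the 60th percentile, 30 with averaged probe sets, 424 with a variance trend, 29 without both 20 min arrays and 1 to 29 with 1 array left out. For late minus early with both stimuli it was 268 as reported, 67 without a filter, 576 with the 60th percentile, 658 with a variance trend, 147 with time as a factor, 71 without both 20 min arrays and 56 to 439 with 1 array left out. With EGF it was 20 as reported, 11 with an offset of 1, 8 without a filter, 57, 69 and 0 under the same 3 further settings (60th percentile, variance trend, both 20 min arrays out), and 1 to 28 with 1 array left out. With serum it was 110 as reported, 199 with an offset of 24, 10 without a filter, 295, 419 and 18 under those 3, and 9 to 207 with 1 array left out. The interaction gave 2 as reported, 8 with an offset of 24, 1 without quantile normalization, 0 without a filter, 5 with the 60th percentile, 1 with averaged probe sets, 70 with a variance trend, 0 without both 20 min arrays and 0 to 2 with 1 array left out.

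At 20 min the count was 2 as reported, 1 with an offset of 24, 0 without a filter, 5 with a variance trend and 0 to 2 with 1 array left out. At 40 min it was 6 as reported, 20 with a variance trend, 3 without both 20 min arrays and 1 to 6 with 1 array left out, and without a filter it was 4. At 60 min it was 6 as reported, 2 without a filter, 28 with a variance trend, 3 without both 20 min arrays and 1 to 7 with 1 array left out. At 120 min it was 2 as reported, 6 with an offset of 24, 1 without a filter, 7 with the 60th percentile, 26 with a variance trend, 1 without both 20 min arrays and 1 to 2 with 1 array left out. At 240 and 480 min it was 0 as reported, 1 and 2 with an offset of 24, 1 and 5 with the 60th percentile and 35 and 46 with a variance trend. The labels give no replicate numbers, so the only pairing was by time, which was already the block in EGF minus serum.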
